A study of Mus musculus with 46 samples.

Results

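The genes described here are 10 transcription factors that mark and maintain the naive state of mouse pluripotent cells: Esrrb, Klf2, Klf4, Klf5, Tfcp2l1, Tbx3, Nr0b1, Zfp42, Prdm14 and Nr5a2. They were taken by symbol, 10 of the 37108 genes of the gene table, and all 10 were also found among the 35976 genes obtained when the transcript table of the iPSC was summed by symbol. None of the 10 was carried by the vectors, so their reads come from the genes of the cells themselves.

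Mouse embryonic fibroblasts (MEF) were infected with pMXs retroviruses for Oct4 and Nanog. By the study's methods these MEF carried the Oct4-GFP reporter of OG2 mice and came from embryos of OG2 males and wild-type females of another strain. In NanogWT, which the labels call Nanog+Oct4, Nanog was the native protein. In NanogBiD, labelled NanogN70+Oct4, Nanog was fused to the BRG1-interacting domain of SS18, which belongs to the BAF remodelling complex. All time-course cells, those of D0 included, had therefore received Oct4 and a form of Nanog, and both combinations were kept in iCD3 medium for about the first 7 days and then in 2iL medium, which holds LIF and inhibitors of MEK and GSK3. Whole cultures were taken at 8 time points, namely D0, D1 and D3, then D5 and D7, and after the change of medium D8, D10 and D12. Each combination had 2 libraries per day except for NanogBiD at D8, which had 1 (31 libraries). Untransduced MEF (2 libraries) and mouse embryonic stem cells (mES, from OG2 mice, which carry an Oct4-GFP reporter, 1 library) served as references, and 12 samples of established iPSC, 6 per combination, were quantified in a separate transcript table with its own MEF and mES columns. The iPSC samples of each combination are labelled iPSC1 or iPSC2, and the labels do not say what these names stand for. By the column names iPSC1 was at a higher passage than iPSC2. The labels do not say whether libraries of a group came from separate infections. The p-values thus measure the spread between these libraries, which may be technical.

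Naive pluripotency is the state of the inner cell mass of the blastocyst and of mouse ES cells grown with LIF and inhibitors of MEK and GSK3. A set of factors with overlapping targets holds it in place. Klf4 and Tfcp2l1 respond to LIF and Stat3, Klf2 is raised when MEK is inhibited, Esrrb and Tfcp2l1 are released from the repressor Tcf7l1 when GSK3 is inhibited, and Tbx3 acts through the PI3K branch of LIF signalling. Esrrb and Nr5a2 are orphan nuclear receptors that bind related half-sites and are known to activate Oct4, and Nr0b1 (Dax1) is a nuclear receptor without the usual DNA-binding domain that limits their activity. Prdm14 represses FGF signalling and DNA methylation genes, and Zfp42 (Rex1) is a zinc finger protein used mainly as a marker of the naive state. Klf5, a relative of Klf2 and Klf4, shares many of their targets.

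Gene positions are those of GRCm38.p6 (mm10). Esrrb lies at chr12:86361117-86521628, Klf2 at chr8:72319062-72321654, Klf4 at chr4:55527137-55532475, Klf5 at chr14:99298691-99313412 and Tfcp2l1 at chr1:118627923-118685168. Tbx3 lies at chr5:119670534-119684724, Nr0b1 at chrX:86191775-86195947, Zfp42 at chr8:43295067-43307009, Prdm14 at chr1:13113428-13127163 and Nr5a2 at chr1:136842562-136960448. Esrrb overlaps Gm40483 and Tbx3 overlaps Tbx3os1. The sources do not say if strand was used in counting, but both overlapping genes stayed below 1 FPKM in every library of the gene table, at most 0.162 and 0.535. Tfcp2l1 overlaps LOC115487679, which was not analysed here.

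Promoter windows of RefSeq (GRCm38.p6) were available for 7 of the 10 genes in 9 windows. The 250 bases before the annotated start are shown for the genes on which the order of activation below turns, each written 5′ to 3′ on the strand of the gene, with capitals for matches to the octamer ATGCAAAT, which Oct4 binds, to GGGNGTGG, a core of the sites of KLF factors, or to AAGGTCA, the half-site of Esrrb and Nr5a2. Both strands were searched, and the letters of these motifs do not overlap in any window shown. The windows are those of Tfcp2l1 (chr1:118627695-118627944, plus strand), the gene called without a break from the earliest day, Zfp42 (chr8:43307010-43307259, minus strand), and the inner start of Nr5a2 (chr1:136953631-136953880, minus strand). The outer start of Esrrb (chr12:86360867-86361116, plus strand), its inner start (chr12:86421394-86421643, plus strand) and Klf2 (chr8:72318812-72319061, plus strand) follow. For Tfcp2l1 the start used, here and for the motif distances, is at 118627945. The end of its window thus lies inside the gene span given above, which begins at 118627923.
Tfcp2l1: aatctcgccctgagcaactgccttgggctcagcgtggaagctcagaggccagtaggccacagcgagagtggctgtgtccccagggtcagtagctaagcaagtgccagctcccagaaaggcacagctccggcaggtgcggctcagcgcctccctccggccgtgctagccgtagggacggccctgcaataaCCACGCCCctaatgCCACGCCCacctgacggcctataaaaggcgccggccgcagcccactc
Zfp42: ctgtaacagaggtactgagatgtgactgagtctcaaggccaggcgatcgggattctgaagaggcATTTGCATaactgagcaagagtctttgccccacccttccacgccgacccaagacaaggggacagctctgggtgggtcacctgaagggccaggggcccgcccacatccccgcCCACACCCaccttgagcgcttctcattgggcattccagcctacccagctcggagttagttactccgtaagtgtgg
Nr5a2, inner start: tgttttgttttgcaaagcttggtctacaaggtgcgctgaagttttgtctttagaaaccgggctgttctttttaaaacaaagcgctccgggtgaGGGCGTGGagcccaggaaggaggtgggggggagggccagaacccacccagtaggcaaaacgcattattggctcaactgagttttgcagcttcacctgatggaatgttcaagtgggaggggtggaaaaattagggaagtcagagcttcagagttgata
Esrrb, outer start: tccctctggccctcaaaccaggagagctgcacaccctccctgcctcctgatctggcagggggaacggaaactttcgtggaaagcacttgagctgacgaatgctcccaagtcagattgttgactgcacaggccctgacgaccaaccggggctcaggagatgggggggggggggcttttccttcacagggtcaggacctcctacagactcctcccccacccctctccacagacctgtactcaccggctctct
Esrrb, inner start: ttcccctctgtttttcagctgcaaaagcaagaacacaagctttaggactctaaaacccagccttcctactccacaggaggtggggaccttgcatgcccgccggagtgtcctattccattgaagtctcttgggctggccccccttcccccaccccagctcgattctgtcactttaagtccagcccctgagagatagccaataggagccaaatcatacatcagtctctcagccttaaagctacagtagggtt
Klf2: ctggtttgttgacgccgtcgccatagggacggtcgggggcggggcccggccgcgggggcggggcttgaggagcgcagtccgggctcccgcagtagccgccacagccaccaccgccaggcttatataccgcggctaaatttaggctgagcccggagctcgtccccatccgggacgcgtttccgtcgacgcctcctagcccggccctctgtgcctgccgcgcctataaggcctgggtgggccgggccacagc
The octamer was found in 1 of the 9 windows, that of Zfp42, 186 to 179 bases before the start, and in 1.6% of all 32851 windows. The KLF letters were found in 3 of the 9 windows and in 15.9% of all: in Tfcp2l1 at 61 to 54 and 47 to 40 bases before the start, in Zfp42 at 75 to 68 and at the inner start of Nr5a2 at 157 to 150. The half-site AAGGTCA was in none of the 9 and in 4.08% of all windows, which says only that these letters are not in these windows.

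Levels are given in FPKM, fragments scaled to gene length and to the mapped total of the library. Differences are on the log2(FPKM + 1) scale, where the changes of weakly expressed genes come out too small. A gene was called where the adjusted p of limma was under 0.05 and the difference at least 1, which is 2-fold. The relative depth of the libraries, recovered from the steps of low values, was 0.875 to 1.10 from D0 to D7. On the later days it was 0.813 to 1.02 with NanogBiD and 1.86 to 3.19 with NanogWT. From D8 on, depth and combination cannot be told apart, whereas up to D7 the libraries were of like depth.

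The 10 genes started from different levels. In the 2 MEF libraries of the gene table Klf4 was at 14.96 and 14.08 FPKM, Klf5 at 12.95 and 8.85, Klf2 at 12.5 and 11.1 and Tbx3 at 7.36 and 5.77. The other 6 genes were at or below 0.0918 FPKM in MEF, and Esrrb, Zfp42 and Prdm14 were listed at 0 in both libraries. The mES library held 344 FPKM of Klf2, 165 of Klf4, 163 of Esrrb, 127 of Zfp42 and 107 of Tfcp2l1, followed by 77.3 of Klf5, 58.2 of Tbx3, 48.1 of Nr0b1, 20.6 of Nr5a2 and 20.4 of Prdm14. The Klf genes and Tbx3 were thus at 3.23% to 16.8% of the mES level in MEF and the other 6 genes at 0.427% or less.

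**Figure D1:**
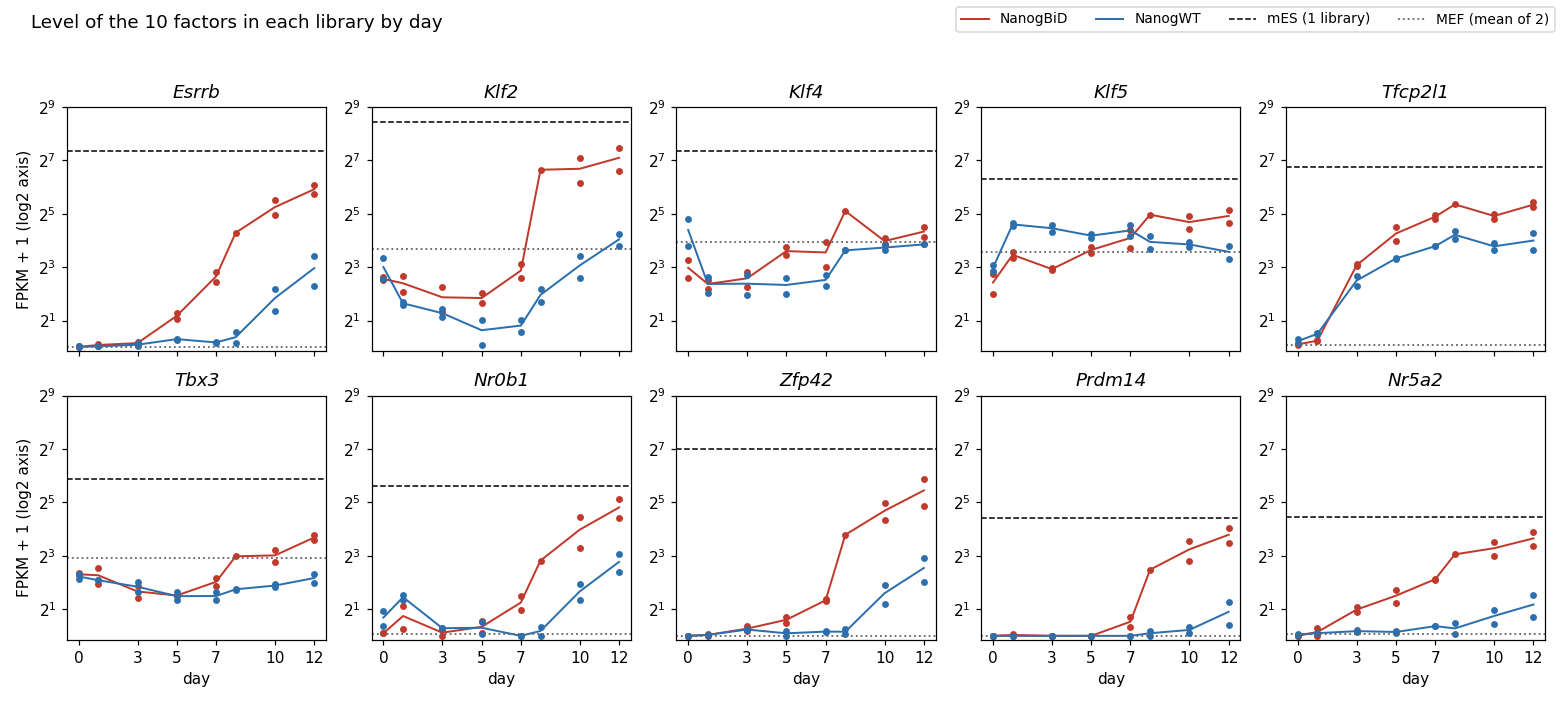
Level of each factor by day as FPKM + 1 on a log2 axis, with 1 point per library and lines through the means, NanogBiD in red and NanogWT in blue, the mES library as a dashed line and the MEF mean as a dotted line. Tfcp2l1 leaves its starting level by D3 in both combinations, and Klf2 stays near or below its MEF level until D7 and stands at 99.5 FPKM in the NanogBiD library of D8.

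With NanogBiD the genes came to be called against D0 for good in sequence: Tfcp2l1, then Esrrb, Nr5a2 and Klf5, then Nr0b1 and Zfp42, then Klf2, Klf4 and Prdm14, and at last Tbx3. Klf5 had also been called at D1, but not at D3. The first day was taken as the earliest day at which a gene was called higher than D0 and from which it was called at every later tested day (D8 was not tested for NanogBiD, with its 1 library). By this measure Tfcp2l1 had D3, Esrrb, Nr5a2 and Klf5 D5, Nr0b1 and Zfp42 D7, Klf2, Klf4 and Prdm14 D10, and Tbx3 D12. Under other settings only the days of Tfcp2l1 and Klf2 stayed the same throughout. Esrrb and Klf5 moved to D7 with quantile normalization (0.98 and 0.97, adjusted p = 0.010 and 0.0063). Klf5 also moved to D7 without replicate 2 of D0 (0.89). With rescaling to a common total Zfp42 moved to D5 (1.17, adjusted p = 0.0096) and Prdm14 to D7 (1.04, 0.016). The common total lay above the FPKM sums of all time-course libraries (370030 to 462190). Rescaling therefore raised every value before the pseudocount was added and also acted like a smaller pseudocount. With no fold limit Tbx3 moved to D10 (0.69, 0.0074). Of the 10 genes, 1 was called higher than D0 at D1 (5.06% of the 16842 genes tested) and 1 at D3 (8.95%). By D5 these were 4 (13.3%), by D7 6 (12.7%), by D10 9 (21.6%) and by D12 10 (24.6%). None was called lower (3.79%, 6.06%, 6.23%, 6.15%, 9.84% and 10.2% of all genes on the same 6 days). The median difference of the 10 genes was 4.12 at D12, where that of all tested genes was 0.34. These comparisons share the D0 libraries, and in whole cultures more cells expressing a gene and more RNA per cell cannot be told apart. The days are where a call was reached, and genes were not tested against each other. For Klf2, Klf4, Klf5 and Tbx3 the D0 libraries lay below both MEF libraries, so a call against D0 need not mean a level above MEF.

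Tfcp2l1, a CP2-family factor downstream of LIF, was at 0.0861 and 0.0660 FPKM in the NanogBiD libraries of D0. It stood at 7.17 and 7.74 at D3, 14.7 and 21.7 at D5, 30.5 and 27.1 at D7, 39.9 at D8, 31.2 and 27.3 at D10 and 37.1 and 42.2 at D12. Every library from D3 on lay above those of D0 and D1. The difference from D0 was 2.97 ± 0.19 (SE) at D3 and 4.79 ± 0.19 at D7 (adjusted p = 4.9e-10 and 1.1e-12), and most of the D12 difference of 5.24 ± 0.19 was thus present by D7. No other gene of the set had covered as much of its way to mES: on the scale of mean log2(FPKM + 1), Tfcp2l1 stood at 72.1% of the way from MEF to mES at D7, Nr5a2 at 47.1%, Esrrb at 35.9% and the others at 21.1% or below.

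Nr5a2, a nuclear receptor that can stand in for Oct4 in reprogramming, was listed at 0 in both NanogBiD libraries of D0. It was at 1.10 and 0.859 FPKM at D3, 1.36 and 2.31 at D5, 3.41 and 3.30 at D7, 7.29 at D8, 10.5 and 6.96 at D10 and 13.8 and 9.32 at D12. Its D3 difference of 0.98 ± 0.25 had an adjusted p of 0.0043 but missed the fold limit narrowly, and the call came at D5 (1.48 ± 0.25, adjusted p = 7.8e-05). Its first day was D3, that of Tfcp2l1, in 4 of 7 other settings. These were no fold limit, a pseudocount of 0.1 (3.42, adjusted p = 0.00011), rescaling (1.70, 0.0010) and quantile normalization (1.02, 0.0036). Of these, rescaling acted in part like a smaller pseudocount. The first day was also D3 without replicate 2 of NanogBiD at D3.

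Esrrb, the related receptor, stayed at or below 0.136 FPKM up to D3. It then stood at 1.07 and 1.46 at D5, 6.09 and 4.50 at D7, 18.6 at D8, 44.6 and 29.7 at D10 and 66.1 and 53.2 at D12. From D5 on, the libraries of each day lay above all those of the day before. The difference from D0 was 1.16 ± 0.28 at D5 (adjusted p = 0.0025) and 5.90 ± 0.28 at D12 (adjusted p = 3.1e-12), the largest of the 10 at D12. Nr0b1, their antagonist, had uneven low levels before D7, from 0 to 1.15 FPKM, with the highest value in 1 library of D1. It was at 0.936 and 1.81 at D7, 6.06 at D8, 20.8 and 8.74 at D10 and 33.9 and 20.1 at D12. Its D7 difference was 1.13 ± 0.36 (adjusted p = 0.016). This first day moved to D10 without replicate 1 or replicate 2 of D0 (1.13 in both fits) and without replicate 2 of D7 (0.86). It also moved to D10 with quantile normalization (0.75, adjusted p = 0.12).

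The Klf genes each took another course. Klf5 was at 5.73 and 3.02 FPKM at D0, rose to 11.0 and 9.06 at D1 and stood at 6.49 and 6.74 at D3. Its later values were 10.5 and 12.6 at D5, 20.1 and 12.2 at D7, 30.3 at D8, 29.3 and 20.4 at D10 and 34.2 and 24.4 at D12. It was called at D1 (1.08 ± 0.27, adjusted p = 0.0055), not at D3 and again from D5 on. The D0 libraries lay below the 12.95 and 8.85 FPKM of MEF, and those of D1 and D5 lay between these values. The call at D1 was lost when replicate 2 of D0 or replicate 1 of D1 was left out, which gave 0 genes called. Klf2 was at 4.68 and 5.13 FPKM at D0. By D3 it stood at 3.82 and 1.51, by D5 at 3.07 and 2.13 and by D7 at 7.69 and 4.98, and it was not called on any of these days. It then stood at 99.5 at D8, 134 and 70.6 at D10 and 177 and 95.2 at D12. The D8 library followed the change of medium, and no other gene of the set had a step of this size between the D7 mean and D8. Klf4 was at 8.69 and 5.08 at D0, 12.5 and 9.85 at D5, 14.4 and 7.11 at D7, 33.5 at D8, 15.9 and 13.7 at D10 and 16.7 and 21.7 at D12. It was called only at D10 and D12 (1.04 ± 0.35 and 1.38 ± 0.35, adjusted p = 0.017 and 0.0022), and the single library of D8 held its highest value. The D10 call was lost, and the first day became D12, with quantile normalization (adjusted p = 0.054), without replicate 2 of D0 (0.70, 0.18) and without replicate 1 of D10 (0.088). At D12 it was close to the 14.96 and 14.08 FPKM of MEF, while the D0 libraries lay below both.

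Zfp42 and Prdm14 were listed at 0 in both NanogBiD libraries of D0. Zfp42 was at 0.406 and 0.631 FPKM at D5, 1.45 and 1.59 at D7, 12.8 at D8, 30.2 and 19.3 at D10 and 57.0 and 28.2 at D12. Its difference from D0 was 1.33 ± 0.29 at D7 and 5.36 ± 0.29 at D12 (adjusted p = 0.00091 and 1.3e-11). Prdm14 was listed at 0 at D3 and D5, and was at 0.627 and 0.261 at D7, 4.57 at D8, 10.9 and 6.03 at D10 and 15.5 and 10.1 at D12. It was called at D10 (3.19 ± 0.24, adjusted p = 1.4e-09), and with a pseudocount of 0.1 both genes had earlier days, D3 for Zfp42 and D7 for Prdm14. Tbx3, a T-box factor already present in MEF, was at 3.83 and 4.06 at D0, 1.90 and 1.80 at D5, 3.44 and 2.69 at D7, 6.88 at D8, 8.28 and 5.88 at D10 and 12.7 and 11.0 at D12. It was called only at D12 (1.38 ± 0.21, adjusted p = 1.1e-05).

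Between D7 and D10, a comparison chosen after the values were seen, 6 of the 10 genes were called higher with NanogBiD (7.96% of all genes) and 0 lower (7.78%). The differences were 3.77 ± 0.42 for Klf2, 3.32 ± 0.29 for Zfp42, 2.67 ± 0.24 for Prdm14, 2.64 ± 0.36 for Nr0b1, 2.58 ± 0.28 for Esrrb and 1.14 ± 0.25 for Nr5a2. Tfcp2l1 differed by 0.02 ± 0.19 over the same days. The medium and the day changed together here and cannot be told apart.

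**Figure D2:**
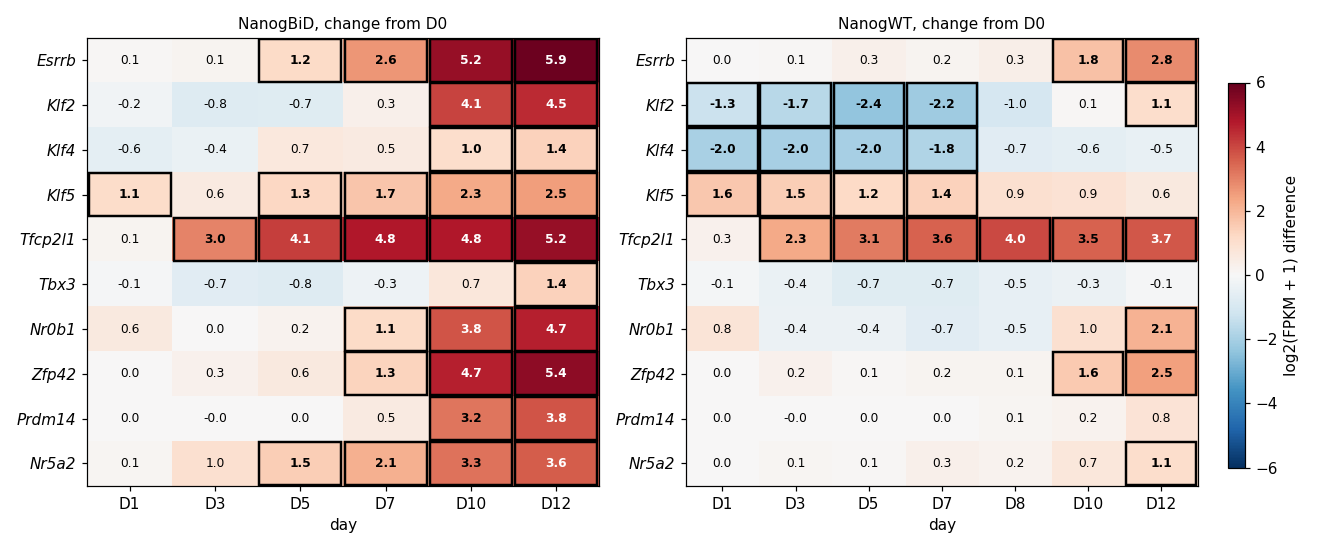
Change from D0 of each factor by day as a log2(FPKM + 1) difference, NanogBiD on the left and NanogWT on the right, with black frames and bold type around the differences called by limma. With NanogBiD the frames begin with Klf5 at D1 and Tfcp2l1 at D3 and take in all 10 genes at D12, and with NanogWT Klf2 and Klf4 are framed as lower from D1 to D7.

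With NanogWT, Tfcp2l1 and Klf5 rose early, and Klf2 and Klf4 fell. At D1, 1 gene was called higher than D0 (4.61% of all genes tested), and 2 were at D3 (9.55%), D5 (10.8%) and D7 (12%). At D8 it was 1 (12.8%), at D10 3 (11.8%) and at D12 6 (12.2%). From D1 to D7, 2 genes were called lower at each day, Klf2 and Klf4 (3.03% at D1, 5.11% at D3, 5.34% at D5 and 5.69% at D7). None was called lower at D8, D10 and D12 (4.98%, 4.19% and 3.95%). First days were D3 for Tfcp2l1, D10 for Esrrb and Zfp42 and D12 for Klf2, Nr0b1 and Nr5a2, and Klf4, Klf5, Tbx3 and Prdm14 had none.

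Tfcp2l1 stood at 0.109 and 0.238 FPKM in the NanogWT libraries of D0, 5.38 and 3.96 at D3 and 9.21 and 8.90 at D5, and reached 12.9 and 12.8 by D7. It was at 19.5 and 15.7 at D8, 11.5 and 14.0 at D10 and 11.6 and 18.4 at D12, and the libraries of D7, D10 and D12 overlapped. Klf5 went up at once, from 7.58 and 6.26 at D0 to 22.6 and 24.0 at D1, and was at 22.7 and 16.9 at D7 and 8.93 and 12.9 at D12. It was called higher than D0 from D1 to D7. At D8 and D10 the differences were just under the fold limit (0.95 ± 0.27 and 0.87 ± 0.27, adjusted p = 0.0074 and 0.014) and were called with rescaling, that of D8 also with a pseudocount of 0.1. At D12 the difference was 0.58 ± 0.27 (adjusted p = 0.098).

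Klf2 fell from 9.19 and 4.88 FPKM at D0 to 0.0651 and 1.05 at D5 and 0.487 and 1.03 at D7. The difference from D0 was -2.16 ± 0.42 at D7 (adjusted p = 0.00034). By D12 Klf2 was back at 12.8 and 18.2, beside 12.5 and 11.1 in MEF, and was called higher than D0 (1.07 ± 0.42, adjusted p = 0.049). That last call was lost in 5 of 7 other settings and in 19 of 30 fits that left out a library, among them those without either D12 library (adjusted p = 0.065 and 0.25) or without replicate 2 of D0 (0.30). Klf4 went from 27.0 and 13.04 at D0 to 3.09 and 5.27 at D1 and 5.60 and 3.92 at D7, and to 13.5 in both libraries of D12. In both genes replicate 1 of D0 was the higher library. Without it the Klf2 calls of D1 and D3 were lost (adjusted p = 0.22 and 0.060) and those of Klf4 were not. In a fit to the compared groups alone 0 genes were called lower at D1, D3 and D5 and 1, Klf2, at D7.

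Esrrb was at or below 0.479 FPKM up to D8 with NanogWT, at 1.59 and 3.60 at D10 and at 3.97 and 9.66 at D12 (2.85 ± 0.28, adjusted p = 1.5e-07). Zfp42 followed with 1.29 and 2.77 at D10 and 3.09 and 6.56 at D12. Nr0b1 was listed at 0 in both libraries of D7 and stood at 4.23 and 7.42 at D12, Nr5a2 at 0.626 and 1.89 and Prdm14 at 0.337 and 1.40. Replicate 2 had the higher value of the pair at D12 in all of these genes. Tbx3 stayed between 1.52 and 4.00 FPKM on all days.

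The direct comparison of the combinations asked at which day the fusion set the genes apart from native Nanog. Called higher with NanogBiD were 0 of the 10 genes at D0 (0.422% of all genes), D1 (0.368%) and D3 (1.25%). At D5 there were 3 (3.2%), at D7 6 (5.79%), at D10 8 (15.4%) and at D12 9 (13.5%). Called lower was 1 gene at D1 (0.962%) and D3 (2.45%) and 0 at D0, D5, D7, D10 and D12 (0.338%, 3.28%, 4.65%, 12.3% and 9.97%). The median difference of the 10 genes was 0.69 at D5, 1.14 at D7, 2.38 at D10 and 2.27 at D12, beside 0.08, 0.08, 0.10 and 0.17 over all genes tested.

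At D0 no gene was called, but Klf4 was at 8.69 and 5.08 FPKM with NanogBiD and 27.0 and 13.04 with NanogWT (-1.37 ± 0.35, adjusted p = 0.051). It was called with quantile normalization (adjusted p = 0.047), with the replicate block (0.045) and without replicate 2 of NanogWT (-1.87, 0.011). Klf5 was the gene on the other side at the next days. It was lower with NanogBiD at D1, 11.0 and 9.06 against 22.6 and 24.0 (-1.15 ± 0.27, adjusted p = 0.021), and at D3, 6.49 and 6.74 against 18.8 and 23.2 (-1.53 ± 0.27, adjusted p = 0.00072). The groups did not overlap at either day. The call of D1 was lost whichever of the 4 libraries was left out, while that of D3 was lost with none of the 4 left out. In a fit to the compared groups alone neither was called.

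At D5 Nr5a2 (1.34 ± 0.25, adjusted p = 0.00076), Klf4 (1.29 ± 0.35, adjusted p = 0.016) and Klf2 (1.27 ± 0.42, adjusted p = 0.043) were higher with NanogBiD. Klf2 was the weakest of these, with 3.07 and 2.13 FPKM against 0.0651 and 1.05, and without replicate 1 of NanogWT at D5 1 gene was called. A fit to the compared groups alone also called 1. Esrrb was at 1.07 and 1.46 FPKM against 0.253 and 0.221. Its difference of 0.87 ± 0.28 (adjusted p = 0.042) was under the fold limit on this scale, and it was called with a pseudocount of 0.1 (2.01, adjusted p = 0.0052) and with rescaling (1.35, 0.011). Tfcp2l1 differed by 0.91 ± 0.19 (adjusted p = 0.0023), also under the limit.

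At D7, the last day with libraries of like depth and before the change of medium, 6 genes were higher with NanogBiD. Esrrb was at 6.09 and 4.50 FPKM against 0.111 and 0.159 (2.46 ± 0.28, adjusted p = 2.2e-06) and Klf2 at 7.69 and 4.98 against 0.487 and 1.03 (2.05 ± 0.42, adjusted p = 0.00093). Nr5a2 was at 3.41 and 3.30 against 0.298 and 0.276 (1.76 ± 0.25, adjusted p = 2.6e-05). Nr0b1 was at 0.936 and 1.81, listed at 0 in both NanogWT libraries, and Zfp42 at 1.45 and 1.59 against 0.0973 and 0.135 (1.22 ± 0.36 and 1.17 ± 0.29, adjusted p = 0.015 and 0.0045). Tfcp2l1 was at 30.5 and 27.1 against 12.9 and 12.8 (1.10 ± 0.19, adjusted p = 0.00022). The Nr0b1 call was lost in 3 of 4 fits that left out a library (adjusted p = 0.063 to 0.15). Klf4 (0.97 ± 0.35, adjusted p = 0.046), Prdm14 (0.52 ± 0.24), Tbx3 (0.53 ± 0.21) and Klf5 (-0.31 ± 0.27) were not called.

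At D12, 9 genes were higher with NanogBiD, all but Klf4. The differences were 3.05 ± 0.28 for Esrrb, 3.01 ± 0.42 for Klf2, 2.92 ± 0.24 for Prdm14, 2.89 ± 0.29 for Zfp42, 2.51 ± 0.25 for Nr5a2, 2.03 ± 0.36 for Nr0b1, 1.53 ± 0.21 for Tbx3, 1.38 ± 0.19 for Tfcp2l1 and 1.35 ± 0.27 for Klf5, with adjusted p from 7.2e-09 to 0.00032. Klf4 was at 16.7 and 21.7 against 13.5 in both NanogWT libraries (0.47 ± 0.35, adjusted p = 0.29). Tbx3 was called from D10 on and Klf5 was called higher at D12 alone.

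**Figure D3:**
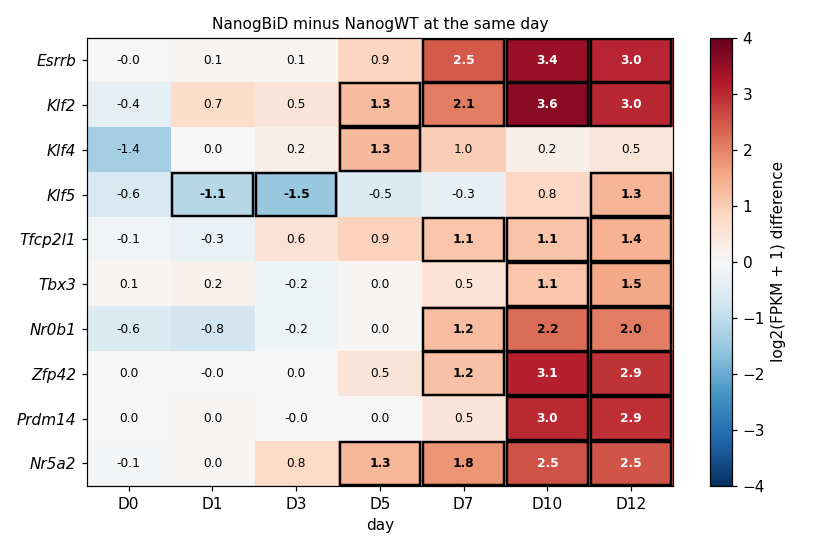
Difference between the combinations, NanogBiD minus NanogWT, as log2(FPKM + 1) for each factor and day, with black frames and bold type around called differences. Klf5 is framed as lower at D1 and D3, 6 genes are framed as higher at D7 and 9 at D12, and Klf4 is framed at D5 alone.

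The test of the difference between the changes from D0 asked whether the genes moved differently in the combinations, apart from where they started. A fall counts as a negative change here. At D7 the change was higher with NanogBiD for 6 of the 10 genes (5.2% of all genes) and lower for none (4.88%). These were Esrrb (2.46 ± 0.40), Klf2 (2.44 ± 0.59), Klf4 (2.34 ± 0.50), Nr5a2 (1.81 ± 0.35), Nr0b1 (1.79 ± 0.51) and Tfcp2l1 (1.23 ± 0.27), with adjusted p from 0.00028 to 0.021. For Klf4 the test includes the difference at D0. Klf2 and Klf4 were called lower than D0 with NanogWT at D7 and were not called with NanogBiD. The Nr0b1 call was lost in 6 of the 8 fits that left out a library (adjusted p = 0.055 to 0.085), all but those without replicate 1 of NanogWT at D0 or of NanogBiD at D7. At D12 the change was higher with NanogBiD for 10 of the 10 (13.4% of all genes) and lower for none (10.5%). Among these, Klf4 again includes the difference at D0, and its levels at D12 were not called different between the combinations. The largest differences were those of Klf2 (3.40 ± 0.59) and Esrrb (3.05 ± 0.40) and the smallest that of Tbx3 (1.44 ± 0.29). This count of 10 was reached in each of the 8 fits that left out a library.

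The cultures also differed in the summed level of fibroblast markers, where fewer fibroblasts and less RNA per cell cannot be told apart. All 12 fibroblast markers (Thy1, Col1a1, Col1a2, Col3a1, Twist1, Snai2, Zeb1, Prrx1, Fbn1, Dcn, Lum and Postn) were at 1 FPKM or above in every time-course library. Their summed level was 2454 to 2923 FPKM at D0 in both combinations, 935 to 1152 at D7 with NanogBiD and 1762 to 1841 with NanogWT, and 327 to 480 and 3196 to 3622 at D12. It was 5897 to 6880 in MEF and 11.6 in mES. The part of this difference in the levels of the 10 genes was not tested. Of 6 pluripotent cell markers, 6 were at 1 FPKM or above at D7 with NanogBiD and 2 with NanogWT, and 6 in both at D12. That list holds Pou5f1 and Nanog, which the vectors also supply. Primitive endoderm markers summed to at most 2.86 FPKM at D7 and 1.85 at D12 in either combination, and trophoblast markers to at most 11.5 on these days. The 5 germ cell markers (Dazl, Ddx4, Nanos3, Prdm1 and Tfap2c) were all at 1 FPKM or above in NanogBiD at D12, with a sum of 40.8 to 58.1, beside 1.63 to 5.49 in NanogWT and 37.2 in mES.

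Set against mES, no gene of the set had reached the ES cell level by D12 in any library. With NanogBiD the highest mean was that of Prdm14, at 49.5% and 75.8% of mES FPKM, followed by Nr0b1 (41.8% and 70.5%) and Nr5a2 (45.2% and 66.9%). Klf2 (27.7% and 51.6%), Klf5 (31.6% and 44.3%), Tfcp2l1 (34.7% and 39.5%), Esrrb (32.6% and 40.6%) and Zfp42 (22.3% and 45.0%) overlapped one another. Tbx3 (18.9% and 21.9%) and Klf4 (10.1% and 13.2%) were the farthest, below all libraries of the other 8 genes. With NanogWT the highest were Tfcp2l1 (10.9% and 17.2%), Klf5 (11.6% and 16.7%) and Nr0b1 (8.80% and 15.4%), and Klf4 was at 8.19% in both libraries. The other 6 genes were between 1.65% and 9.15%. MEF itself stood at 11.5% and 16.8% of mES for Klf5, 8.56% and 9.09% for Klf4, 9.91% and 12.6% for Tbx3 and 3.23% and 3.63% for Klf2. With NanogWT the D12 shares of Klf5 and Klf4 were thus close to those of MEF. Since mES was 1 library, these shares carry no error of their own on the mES side.

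The day on which the mean log2 level first lay at or past the middle of the way from MEF to mES is given as a description with no test. With NanogBiD it was D5 for Tfcp2l1, D8 for Esrrb, Klf2, Klf5, Zfp42, Prdm14 and Nr5a2 and D10 for Nr0b1. The D8 values rest on 1 library, in which Nr0b1 stood at 49.8%, just short of the middle. That Nr0b1 came after Klf2 and Prdm14, unlike in the first days above, thus hangs on the cut. Klf4 and Tbx3 never reached the middle, and Klf5 stood at 51.7% at D8, 40.8% at D10 and 49.3% at D12. With NanogWT only Tfcp2l1 reached it, at D7.

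**Figure D4:**
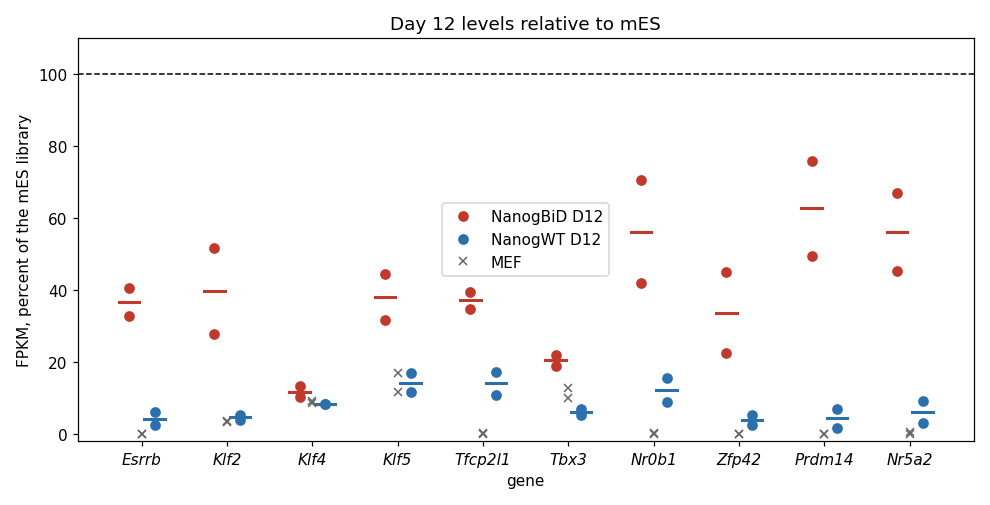
FPKM of each factor at D12 as a percent of the single mES library (dashed line at 100), with 1 point per library, short bars for the means of 2 and crosses for the 2 MEF libraries. NanogBiD points lie above NanogWT points for every gene, and Klf4 is the gene with the smallest gap, at 10.1% and 13.2% beside 8.19%.

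Lists of related genes were compared between the combinations at D7, where 5.79% of all genes were called higher and 4.65% lower with a median difference of 0.08, and at D12, where 13.5% were called higher and 9.97% lower with a median of 0.17. Of 10 other genes of the naive state, 6 were higher with NanogBiD at D7 and 10 at D12, and 0 were lower at either day (medians 1.55 and 3.14). At D7 these were led by Tdh, threonine dehydrogenase (3.95 ± 0.46), and Dppa5a (2.75 ± 0.41), and at D12 by Dppa3 (4.06 ± 0.49) and Fgf4 (3.42 ± 0.30). Of the 12 core factors and inputs of the network, 3 were higher and 1 lower at D7, and 3 were higher and 4 lower at D12 (medians 0.32 and -0.75). Sall4 (3.22 ± 0.31 at D7 and 3.11 ± 0.31 at D12), Sox2 (3.31 ± 0.45 and 2.74 ± 0.45) and Gbx2, a Stat3 target (3.84 ± 0.46 and 1.63 ± 0.46), were the higher ones. Pou5f1 was lower (-1.27 ± 0.36 and -1.99 ± 0.36), a sum of vector and endogenous transcripts. At D12 the LIF receptor chains Lifr (-1.10 ± 0.20) and Il6st (-1.39 ± 0.19) and the kinase Jak1 (-1.24 ± 0.14) were lower too.

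Of 10 primed and formative genes, 8 were tested. At D7, 4 were higher and 1 lower with NanogBiD, and at D12 5 were higher and 1 lower (medians 0.77 and 1.24). Pou3f1, a POU factor of the primed state, was the lower one (-3.20 ± 0.43 at D7 and -1.80 ± 0.43 at D12). Dnmt3b, a DNA methyltransferase (2.50 ± 0.24 and 1.98 ± 0.24), and Lef1, a Wnt effector (2.63 ± 0.28 and 2.01 ± 0.28), were higher at both days. Of 18 relatives of the 10 genes, 14 were tested, 4 were higher and 0 lower at D7 and 3 were higher and 1 lower at D12 (medians 0.38 and 0.37), shares that at D12 were near those of all genes. They were led by Klf10, a TGF-beta-induced KLF (1.96 ± 0.19 and 2.43 ± 0.19), and by Prdm1 at D12 (1.86 ± 0.25), while Klf6 was lower at D12 (-1.11 ± 0.18).

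Likeness of pattern over the 31 time-course libraries was measured as Pearson's r of log2(FPKM + 1), a description over libraries that share days and combinations. Among the nearest other genes were Cdh1, Camsap3 and Cecr2 for Esrrb (r = 0.989, 0.989 and 0.988), Rbmxl2, Fgf4 and Lefty2 for Zfp42 (0.994, 0.991 and 0.991), and Spic, Dppa4 and Mageb16 for Prdm14 (0.993, 0.993 and 0.993). For Nr5a2 they were Ankrd45 and Sall4 (0.980 and 0.974), for Nr0b1 Lefty2, Spire2 and Platr10 (0.961, 0.953 and 0.953) and for Klf2 Fgd1 and Sox15 (0.958 and 0.949). For Tfcp2l1 they were Cntn2, Igfbpl1 and Lama1 (0.956, 0.949 and 0.948), for Tbx3 Pop1, Cbs and Pcsk6 (0.935, 0.934 and 0.932), for Klf4 Ier5l, Tcf7l1 and Hspb1 (0.880, 0.877 and 0.858) and for Klf5 Sema4b, Lrig1 and Brpf3 (0.883, 0.847 and 0.835). Within the set Esrrb and Zfp42 were the most alike (0.985) and Klf4 and Klf5 the least (0.162), and Tfcp2l1 and Tbx3 stood at 0.186.

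In the 12 established iPSC samples all 10 genes were expressed, 9 of them at 63.7% or more of the mES level in every sample and Zfp42 at 24.2% to 130%. Levels here are sums over transcripts and are compared only within the transcript table, whose depth is unknown. Nr0b1 was at 63.5 to 151 FPKM, 173% to 410% of the 36.8 FPKM in mES, and Tbx3 at 75.6 to 128, 149% to 253% of mES. Klf5 (71.5 to 134 FPKM, 112% to 210%) and Tfcp2l1 (94.8 to 131, 113% to 156%) also lay above mES in 12 of 12 samples. Nr5a2 was above it in 11, Esrrb in 9, Prdm14 in 7, Klf4 and Zfp42 in 6 and Klf2 in 3 of 12. Tbx3 and Klf4, the genes farthest from mES at D12, were at 149% or more and at 66.2% to 157% of mES in these samples.

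The iPSC of the combinations were not called different in any of the 10 genes. limma called 0 of 10, as it did 0 of 12456 genes tested (0%), and no other setting run called any of the 10. An unadjusted p under 0.05 was reached by 201 genes, fewer than the share of 0.05 that chance alone would give. The lack of calls does not show that the iPSC of the combinations were alike. The differences were NanogBiD minus NanogWT, with the iPSC1 or iPSC2 label as covariate. They ran from -0.36 ± 0.31 for Zfp42 to 0.02 ± 0.08 for Tfcp2l1, and the other 8 lay between these.

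Zfp42 was lower in all iPSC1 samples but 1 than in the iPSC2 samples. In iPSC1 it was at 34.6, 48.1 and 76.3 FPKM with NanogBiD and at 45.4, 49.5, 77.2 and 185 with NanogWT. In iPSC2 it was at 156, 165 and 169 with NanogBiD and 162 and 179 with NanogWT, and in mES at 143. The 6 lower iPSC1 samples did not overlap with iPSC2, and NanogWT sample 2 of iPSC1 was above all iPSC2 samples. The difference, iPSC1 minus iPSC2, was -1.44 ± 0.31 (adjusted p = 0.026), and Zfp42 was the only 1 of the 10 called (0.377% of all genes called lower and 0.506% higher). The call was lost when NanogBiD sample 1, 2, 3, 8 or 9 or NanogWT sample 6 was left out, each giving 0, and without the filter on low values. Passage goes with the labels iPSC1 and iPSC2, so these cannot be told apart. The summed fibroblast markers ran from 5.42 to 1415 FPKM in iPSC1, highest in NanogBiD sample 9 where Zfp42 was lowest, and from 7.36 to 39.0 in iPSC2. The part of fibroblast RNA in the Zfp42 values was not tested.

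**Figure D5:**
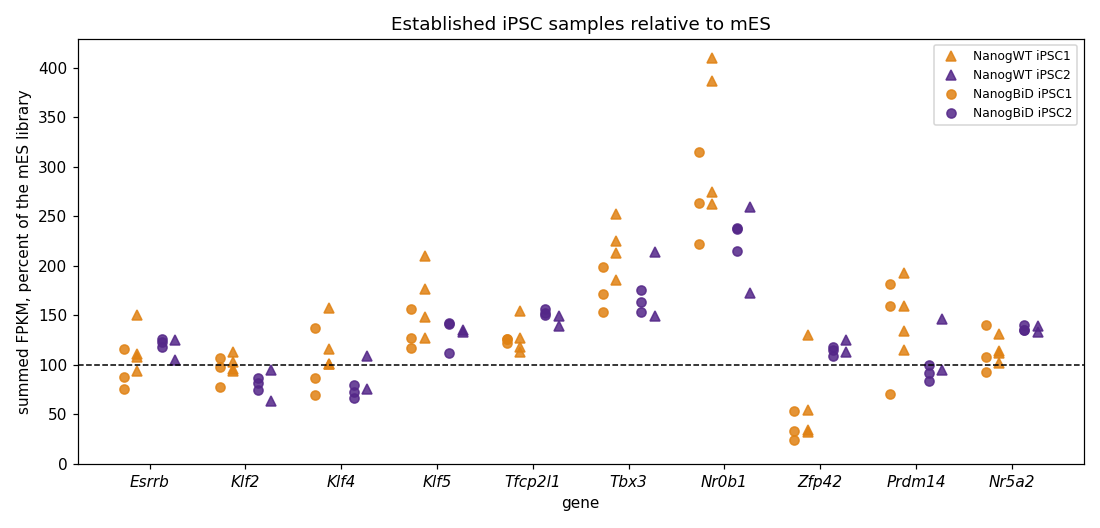
Summed FPKM of each factor in the 12 iPSC samples as a percent of the mES column of the same table (dashed line at 100). Colours are orange for iPSC1 and purple for iPSC2, with circles for NanogBiD and triangles for NanogWT. Nr0b1, Tbx3, Tfcp2l1 and Klf5 lie above the line in all 12 samples, and in Zfp42 6 iPSC1 samples lie at or below 54.0%, apart from 1 at 130%.

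The transcript table also showed which start of a gene the reads were assigned to. For Nr5a2, the transcript of the outer start (NM_030676.3, first base 136960448) took at most 0.125% of the gene's FPKM in the 12 iPSC samples. The transcript of the inner start 6.82 kb downstream (NM_001159769.2, first base 136953630) took 46.3% to 68.6% and the model XM_006529622.3 took 31.4% to 53.7%. In mES these were 0%, 55.1% and 44.9%. The promoter window printed above for Nr5a2 is the one at the inner start. For Esrrb, 2 transcripts with starts 60.5 kb apart took nearly all reads in turn. NM_001159500.1, of the outer start, took at least 89.3% in 8 of the 12 iPSC samples and in mES, and NM_011934.4, of the inner start, took at least 99.9% in the other 4, which were NanogWT samples 1, 2, 3 and 6. No sample was mixed between these, and the summed FPKM ranged from 118 to 236. Such an assignment is an estimate of the assembler from short reads, and the sum by gene is not touched by it. Tbx3 was split between NM_011535.3 (50.6% to 82.6%) and NM_198052.2 (17.4% to 41.6%), and Klf2, Klf4, Klf5, Nr0b1 and Prdm14 had 1 transcript each.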

How the data were processed

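Mouse cells were profiled by mRNA sequencing of total RNA. Per the labels and the study's methods, the authors trimmed reads with Trim Galore 0.6.4, aligned them to mm10 with HISAT2 2.2.1 and made FPKM values with StringTie 2.2.1. The deposited FPKM are kept per replicate in a gene table and, for iPSC, a transcript table. The annotation release and strand setting are not given in the sources used here. GFOLD, used by the authors, needs mapped reads and was not used.

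Values were tested as log2(FPKM + 1) with limma 3.58.1 in R 4.3.3 (eBayes with an intensity trend, two-sided, Benjamini-Hochberg over all genes). A gene entered the test where 2 or more libraries reached 1 FPKM. This left 16842 for the fit of 31 libraries in 16 groups and 12456 for the 12 iPSC samples. The iPSC were fitted with the iPSC1 or iPSC2 label and the combination. All 10 genes passed. Calls needed an adjusted p under 0.05 and a 2-fold difference. FPKM are not counts, so depth is known only as a ratio: low values were whole multiples of a step per gene in 81.8% to 87.2% of cases (2415 genes, tolerance 0.05, 17 libraries not used to find it), which gave relative depth. No interval or floor is given. Motifs were searched in the RefSeq windows. Other genes were named by a rule: from each list at most 4 called genes with the largest differences, and the 3 genes nearest to each of the 10 in pattern, some of which are not reported here. The fits were tested on simulated data.

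The 10 genes, lists and tests were chosen with earlier results of these data known. Alternatives were a pseudocount of 0.1, no filter, rescaling to a common total, quantile normalization, the replicate number as a block and no fold limit. Others were the compared groups alone, no covariate for the iPSC1 or iPSC2 label, averaging of NanogWT samples 1 and 1-2, and leaving out each library. The common total was above the FPKM sum of every library, so rescaling also acted like a smaller pseudocount. Python 3.11.15 with pandas 2.3.3, numpy 2.4.6 and matplotlib 3.10.9 was used.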

Additional observations from a re-analysis of the deposited data

Results flagged for a closer look

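The change from D0 differed between the combinations, by the interaction term of limma, in the following genes. With a fall counted as negative, the change was always the higher one in NanogBiD. At D7 Klf2 and Klf4 were called lower than D0 with NanogWT and were not called with NanogBiD. At D7 the differences of the changes were 2.46 for Esrrb, 2.44 for Klf2, 2.34 for Klf4, 1.81 for Nr5a2, 1.79 for Nr0b1 and 1.23 for Tfcp2l1. At D12 they were 3.40 for Klf2, 3.05 for Esrrb, 2.92 for Prdm14, 2.89 for Zfp42, 2.60 for Nr0b1, 2.57 for Nr5a2, 1.95 for Klf5, 1.84 for Klf4, 1.4996 for Tfcp2l1 and 1.44 for Tbx3. The values of Klf4 at both days include its difference at D0, and its levels at D7 and at D12 were not called different.

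In the iPSC, 2 of 20 groups of 6 samples had a sample far from the others by Dixon's criterion, where chance gives about 1 in 20. Klf2 was lowest in NanogWT sample 5, at 171 FPKM, and Klf4 was highest in NanogBiD sample 8, at 183 FPKM.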

How the results depend on the processing

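The 9 genes called between the combinations at D12, the 10 called between their changes at D12 and the 10 with a first day in NanogBiD were the counts under every setting run for them. Of 2940 single values under alternatives, 73 lost their call, 72 gained one and 0 turned; 97 values that were never called changed sign. Counts of called genes moved as follows, and the causes were not tested. NanogBiD against NanogWT gave 1 at D0 with quantile normalization and with the replicate block, 0 at D1 and D3 and 1 at D5 in the compared groups alone, 2 at D3 with no fold limit, a pseudocount of 0.1 or rescaling, and 5 at D5 with no fold limit or a pseudocount of 0.1. Against D0, NanogBiD gave 0 at D1 with quantile normalization or the compared groups alone, and at D3 3 with no fold limit or a pseudocount of 0.1 and 2 with rescaling or quantile normalization. NanogWT gave 0 at D1 and 2 at D3 and D5 in the compared groups alone, 2 at D8 with no fold limit, rescaling or quantile normalization and 3 with a pseudocount of 0.1, and 6 at D10 with no fold limit or rescaling. iPSC1 against iPSC2 gave 0 without the filter.

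Leaving out 1 library gave, between combinations, 0 to 1 at D0, 0 at D1, 1 at D3, 1 to 3 at D5, 5 to 6 at D7, 7 to 9 at D10 and 9 at D12. Against D0 it gave 0 to 1, 1 to 2, 3 to 4, 5 to 6, 8 to 9 and 10 for NanogBiD at D1, D3, D5, D7, D10 and D12. For NanogWT it gave 2 to 3 at D1, 3 to 4 at D3, 4 at D5 and D7, 1 to 3 at D8, 3 to 5 at D10 and 4 to 6 at D12. It gave 5 to 6 and 10 for the changes at D7 and D12, 5 to 7 for D10 against D7, 0 and 0 to 1 for the iPSC comparisons, and 10 and 4 to 6 for first days with NanogBiD and NanogWT. Where a group was left with 1 library, that library was assumed to vary like the other groups.

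The deviations of same-numbered libraries of the combinations had correlations of -0.06 to 0.39 over the 7 days, highest at D7 and D0 (0.39 and 0.23). With 2 libraries per group this cannot show whether same-numbered libraries shared an infection or a batch. The replicate block changed no other count by over 1.5 times. The median of all genes at D12 against D0 was 0.34 with NanogBiD and -0.01 after quantile normalization, against which the 10 genes still counted 10.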
